A study of Mus musculus with 10 samples.

Results

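Collagen chain genes were taken as the protein-coding genes whose whole name is Col, a number, the letter a and a number, and 44 such genes were found among the 33120 genes that have an exon length, of 51826 genes listed. They were followed in inguinal white adipose tissue (iWAT), a subcutaneous fat pad, of male C57BL/6 mice by RNA-seq, 1 library per mouse. The F1 groups were 3 offspring of control-diet (CD) fathers, F1-CD, and 3 of low-protein-diet (LPD) fathers, F1-LPD, all at 5 weeks of age and all raised on the CD by mothers fed the CD. The F0 groups were 2 males fed the CD (F0-CD) and 2 fed the LPD (F0-LPD) after weaning at 3 weeks, at 10 to 12 weeks of age. The offspring of 1 paternal diet had different mothers, while no source used here says which F0 mouse was the father of which offspring. Generation, age and library set coincide in these mice, so in a comparison of F1 with F0 they cannot be told apart.

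Collagens are trimers of chains that wind around each other in a triple helix, and glycine recurs at a spacing of 3 residues along the helical part of a chain. Fibrillar chains form the fibrils of connective tissue. Type I trimers hold Col1a1 and Col1a2, type III trimers hold Col3a1 alone, and type V chains sit in the same fibrils as type I. Type IV chains form the network of the basement membrane, which in fat surrounds each adipocyte and each capillary. Fibril-associated chains decorate the surface of fibrils, and type VI chains form beaded filaments close to cells. Adipocytes, their progenitors, fibroblasts and vessel cells all make collagens, so a fat pad holds chains of several sources. The 44 genes were divided into 11 fibrillar genes, 6 basement membrane genes (type IV), 9 fibril-associated genes and 18 other genes.

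The repeat that makes these genes collagens is visible in their coding sequences. The stretches of 30 codons shown here come from the transcript with the longest coding sequence of each gene in GENCODE vM21 (mm10), with every GGN codon, which encodes glycine, in capitals. They are codons 168 to 197 of Col1a1 (chr11:94936224-94953042, plus strand) and 164 to 193 of Col3a1 (chr1:45311538-45349706, plus strand), each at the start of the longest uninterrupted repeat, and codons 148 to 177 of Col4a1 (chr8:11198423-11312826, minus strand) and 960 to 989 of Col4a2 (chr8:11312805-11449287, plus strand), each across the end of it. The pairs are shown because they carry the fibrillar and the basement membrane results.
Col1a1: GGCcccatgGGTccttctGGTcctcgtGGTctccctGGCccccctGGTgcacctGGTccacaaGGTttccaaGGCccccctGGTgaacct
Col3a1: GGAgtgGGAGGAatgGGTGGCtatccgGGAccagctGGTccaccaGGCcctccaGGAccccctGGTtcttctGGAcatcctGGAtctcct
Col4a1: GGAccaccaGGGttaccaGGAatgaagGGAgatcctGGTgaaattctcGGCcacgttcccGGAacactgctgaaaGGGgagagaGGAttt
Col4a2: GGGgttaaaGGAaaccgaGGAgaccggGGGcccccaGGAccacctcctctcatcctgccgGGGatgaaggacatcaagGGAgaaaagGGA
The capitals recur at a spacing of 3 codons in Col1a1 and Col3a1, where Col3a1 holds 12 GGN codons in 30 because some also fall between the regular positions. In Col4a1 and Col4a2 the spacing breaks within the stretch. Over whole genes, the longest run with GGN at that spacing had 216 to 344 repeats in the 11 fibrillar genes, with a median of 338, and 39 to 66 repeats in the 6 type IV genes. Inner coding exons of exactly 54 bases, a length that codes for 6 repeats, made up 48.6% of those of the fibrillar genes and 26.3% of those of the fibril-associated genes. They made up 4.23% in the type IV genes, 7.26% in the other collagen genes and 0.733% over all protein-coding genes. Type IV exons were nevertheless often a multiple of 9 bases, at 47.2%, against 83.9% in the fibrillar genes and 14.3% over all genes.

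Between 6351075 and 10044546 exon reads were counted per library. Of the reads assigned to protein-coding genes, introns took 37.0% ± 0.830 in F1-CD and 43.7% ± 4.19 in F1-LPD (SD, n = 3 each). The summed level of 8 adipocyte genes was 12500.5 to 21118 CPM (counts scaled to 1e+06 per library) in the 10 libraries, so the labelled tissue showed its markers throughout. F1-CD mouse 3 had the lowest collagen share of its group, and its values are given apart from the others where a result rests on them.

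Collagen genes took 3.02% ± 0.669 (SD, n = 3) of all exon reads in F1-CD, with 3.12%, 3.63% and 2.30% in the 3 mice. In F1-LPD the share was 2.05% ± 0.223 (SD, n = 3), with 1.83%, 2.28% and 2.06%. F0-CD males were at 0.728% ± 0.148 and F0-LPD males at 0.809% ± 0.0148 (SD, n = 2 each). All 6 F1 libraries thus lay above all 4 F0 libraries, and within F1 the paternal diets did not overlap, although the lowest F1-CD mouse lay only just above the highest F1-LPD mouse. Fibrillar genes supplied 81.0% of the collagen reads in F1-CD, 74.0% in F1-LPD, 52.5% in F0-CD and 54.1% in F0-LPD. Basement membrane genes supplied 10.1%, 13.9%, 21.5% and 23.8% in the same order, and fibril-associated genes at most 2.36% in any group.

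**Figure D1:**
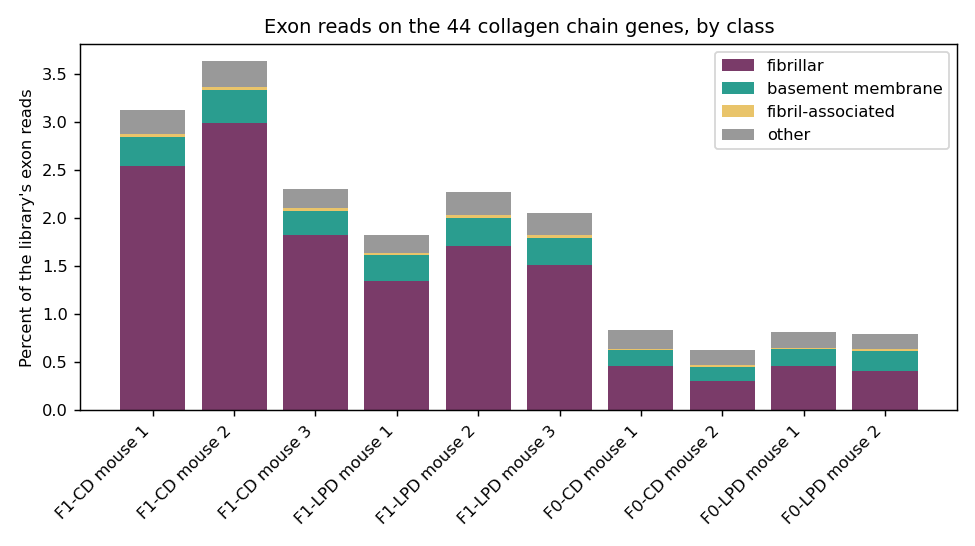
Share of each library's exon reads on the 44 collagen chain genes (y axis, percent), stacked by class, for each mouse (x axis). The fibrillar part makes up most of the bar in the 6 F1 libraries, where the total is 1.83% to 3.63%, and about as much as the rest together in the 4 F0 libraries.

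Levels between genes were compared per exon length, as RPKM (reads per kilobase of exon, scaled to the library total). In F1-CD the order was Col1a1 (596 ± 182 RPKM, SD, n = 3), Col3a1 (491 ± 105), Col1a2 (191 ± 48.0), Col4a1 (130 ± 17.4) and Col4a2 (84.1 ± 15.2). Within each F1-CD mouse Col3a1 lay below Col1a1 per exon length, at ratios of 0.780, 0.784 and 0.964. In F0-CD the first places were close together, with Col3a1 at 78.3 ± 24.8 RPKM (SD, n = 2), Col4a1 at 69.7 ± 5.08 and Col1a1 at 67.9 ± 20.2, so the main type IV chain stood level with the main fibrillar chains. Next came Col4a2, Col15a1 (a chain of the zone between basement membrane and fibrils), Col6a1 and Col1a2 (32.9 ± 8.14 RPKM). In F0-LPD the means of Col1a1, Col4a1 and Col3a1 were close, at 86.0, 85.2 and 83.8 RPKM. Within the mice the ratio of Col3a1 to Col1a1 was 0.988 and 0.960. The range of Col4a1, 75.6 to 94.8 RPKM, took in those of Col1a1 and Col3a1.

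The range of the class was wide. Over the 10 libraries, 20 genes averaged 10 CPM or more, and 12 genes had 1000 or more reads in every library. At the other end, Col25a1, a transmembrane collagen known from neurons, had 0 exon reads in all libraries, which allows up to 0.299 CPM (3 reads) in the deepest library and 0.472 CPM in the shallowest. In total, 8 genes never passed 10 reads: Col25a1, the cartilage chains Col2a1, Col9a1 and Col9a2, and Col19a1, Col24a1, Col26a1 and Col8a2. Between 0 and 12 reads were counted on Col22a1, 1 to 12 on Col9a3, 3 to 24 on Col4a6, 3 to 18 on Col13a1, 5 to 25 on Col17a1 and 10 to 31 on Col20a1. Low counts of 8 to 22 reads were also found for Col11a1. Col10a1, known from hypertrophic cartilage, had 36 to 65 reads, but only 0.977% of them matched that gene alone, and of the reads of Col4a3 only 58.6% did, so the levels of both are uncertain. The remaining low genes were Col4a3 (25 to 64 reads), Col6a4 (55 to 114), Col6a5 (31 to 93), Col7a1 (6 to 48), Col8a1 (18 to 61), Col11a2 (20 to 54), Col23a1 (39 to 94) and Col28a1 (26 to 60).

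**Figure D2:**
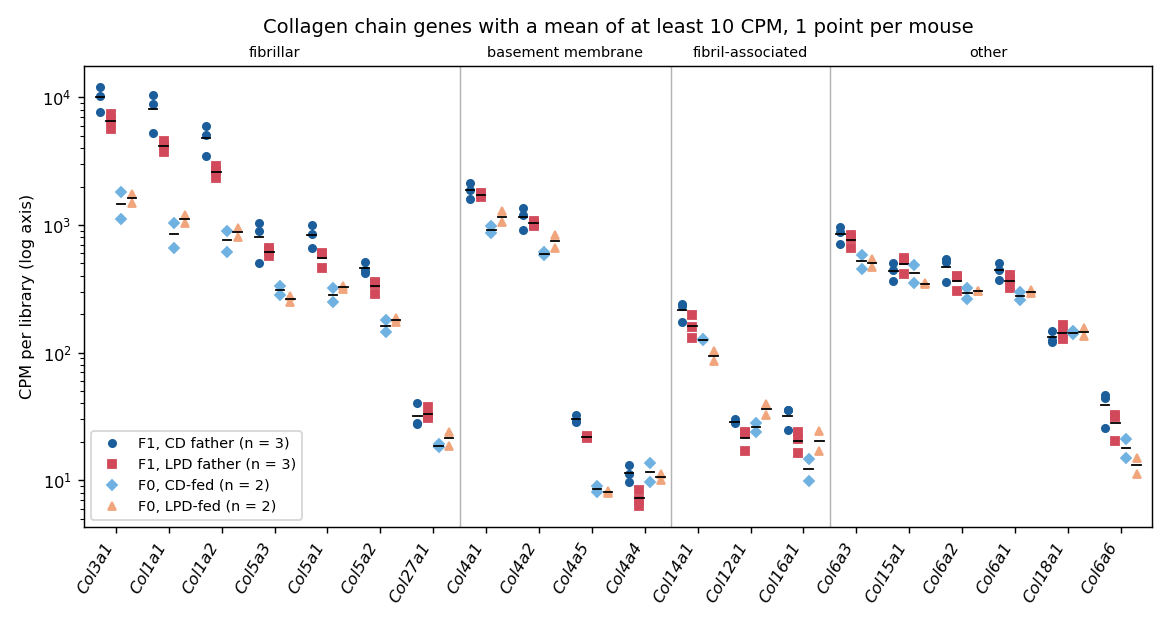
CPM of the 20 collagen chain genes averaging 10 CPM or more (y axis, log scale), 1 point per mouse, with a bar at each group mean; genes are ordered by level within their class. The F1 points of Col3a1, Col1a1 and Col1a2 lie between 2326 and 12146 CPM and the F0 points between 619 and 1804 CPM, while the groups are mixed for Col15a1 and Col18a1.

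The paternal diets were compared in the 6 F1 libraries, to ask what a father's low-protein diet does to gene expression in the offspring's fat. Most collagen genes had a negative fold change in F1-LPD, and few passed the test. Of 34 collagen genes tested, 28 had a log2 fold change below 0, against 48.6% of all 14049 genes tested, and their median was −0.39 against 0.007 over all genes. With edgeR's quasi-likelihood test, 1 collagen gene, Col1a2, was called down-regulated at an adjusted p under 0.05, a call that 1.02% of all tested genes received, and 0 were called up-regulated, against 0.142% of all tested genes. At an unadjusted p under 0.05, 13 of the 34 were lower and 0 higher, against 8.76% and 6.57% of all tested genes. In 12 of the 34, every F1-LPD mouse lay below every F1-CD mouse, which was so for 10.3% of all tested genes. In tissue RNA, fewer cells of a type and less RNA per cell cannot be told apart.

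Type I collagen showed the widest gap among the abundant chains. Col1a2 (ENSMUSG00000029661, chr6:4504814-4541544) was at 5044, 5980 and 3461 CPM in F1-CD and at 2326, 2892 and 2647 CPM in F1-LPD. The groups did not overlap, and F1-CD mouse 3 was nearer to the F1-LPD mice than to its own group. The log2 fold change was −0.87 (standard error 0.18), which is 1.83-fold lower, with an adjusted p of 0.0466 (edgeR). Its partner Col1a1 (ENSMUSG00000001506) was at 8818, 10353 and 5286 CPM against 3743, 4527 and 4204 CPM. This pattern over the mice was that of Col1a2, and its log2 fold change was −0.96, standard error 0.21, with an adjusted p of 0.0512 (edgeR) that did not pass. Col1a1 did pass with DESeq2 (adjusted p = 0.0266), with its size factors (0.0495), with uniquely matching reads (0.0378), with all 4 groups fitted together (0.0359), with a replicate block (0.0287) and without the low-count filter (5.18e-08). The fit without the filter called 564 of 22256 genes lower, against 144 of 14049 in the main fit. The replicate numbers are not known to pair mice. Col1a1 did not pass without any one F1 mouse other than F1-CD mouse 3 (adjusted p from 0.104 to 0.218, edgeR).

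Most other fibrillar chains had fold changes of the same sign. Col3a1 was at 10292, 12146 and 7624 CPM in F1-CD and at 5632, 7430 and 6652 CPM in F1-LPD, which gave −0.60 on the log2 scale (standard error 0.18, adjusted p = 0.130, edgeR). Col5a1, which helps to start fibrils, gave −0.59 (adjusted p = 0.0908), and its partner Col5a2 gave −0.46 (adjusted p = 0.0751). In both, the 3 F1-CD mice lay above the 3 F1-LPD mice. Col5a3, a type V chain of more restricted expression, overlapped, with 889.6, 1035 and 500.4 CPM against 576, 624 and 655 CPM. Of the 9 fibrillar genes tested, 7 had a negative fold change and the median was −0.59; the exceptions were Col27a1 (0.07, adjusted p = 0.869) and Col11a2 (0.21, adjusted p = 0.729).

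The abundant basement membrane chains Col4a1 and Col4a2 had small fold changes in exon reads. Col4a1 was at 1894, 2133 and 1588 CPM in F1-CD and at 1659, 1771 and 1751 CPM in F1-LPD, so the F1-LPD mice lay inside the range of the others. Its log2 fold change of −0.11 had a 95% interval of −0.34 to 0.13. For Col4a2 it was −0.16, with an interval of −0.43 to 0.10. The less abundant Col4a5, on the X chromosome, was at 28.5, 32.5 and 28.9 CPM against 21.3, 22.2 and 22.0 CPM, tight groups that did not overlap (log2 fold change −0.45, standard error 0.11, adjusted p = 0.0862, edgeR). Col4a4 gave −0.63 (adjusted p = 0.167) and the rare Col4a6 −1.09 (adjusted p = 0.330), the latter with overlapping groups. Of the 6 type IV genes tested, 5 were negative, with a median of −0.30, and 0 passed the adjusted threshold, while 2 passed an unadjusted p of 0.05.

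All 4 fibril-associated genes tested had a negative fold change in F1-LPD, with a median of −0.52, and none of the 4 passed the adjusted threshold. Col16a1 was at 35.5, 35.2 and 24.7 CPM against 16.2, 23.7 and 20.9 CPM (log2 fold change −0.64, adjusted p = 0.108, edgeR). Col12a1 was at 30.1, 28.0 and 28.4 CPM against 16.8, 23.7 and 23.5 CPM (−0.42, adjusted p = 0.190). Both were separated by group, while Col14a1 (−0.41, adjusted p = 0.234) was not, and Col20a1, at under 4 CPM, gave −0.62.

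Among the 15 other genes tested, 12 were negative and the median was −0.25. The type VI chains Col6a1, Col6a2 and Col6a3 gave −0.25, −0.36 and −0.15, all with overlapping groups. Col7a1, the chain of the anchoring fibrils under epithelia, was rare but separated, at 6.48, 4.28 and 5.51 CPM in F1-CD and 2.60, 1.76 and 2.34 CPM in F1-LPD (log2 fold change −1.27, standard error 0.31, adjusted p = 0.0779, edgeR). The endostatin-bearing chains Col15a1 and Col18a1 pointed the other way, with fold changes of 0.20 (95% interval −0.08 to 0.48) and 0.13 (interval −0.09 to 0.34) that did not pass the test.

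These counts rested on single mice. Without F1-CD mouse 3, 8 of 34 genes were called lower (Col1a1, Col1a2, Col3a1, Col5a1, Col5a2, Col5a3, Col16a1 and Col6a2), against 2.58% of all 14322 genes tested in that fit, and the median was −0.52, while without any other F1 mouse 0 were called. The exon share of each library's gene reads, 50.2% ± 0.972 (SD, n = 3) against 43.4% ± 3.51 (SD, n = 3), moved with the paternal diet without overlap, and with that share as a covariate 0 collagen genes were called, against 0.0997% of all genes called lower, and the median was −0.04. In that fit Col1a1 was at −0.66 (adjusted p = 0.703, edgeR) and Col1a2 at −0.54 (adjusted p = 0.714).

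**Figure D3:**
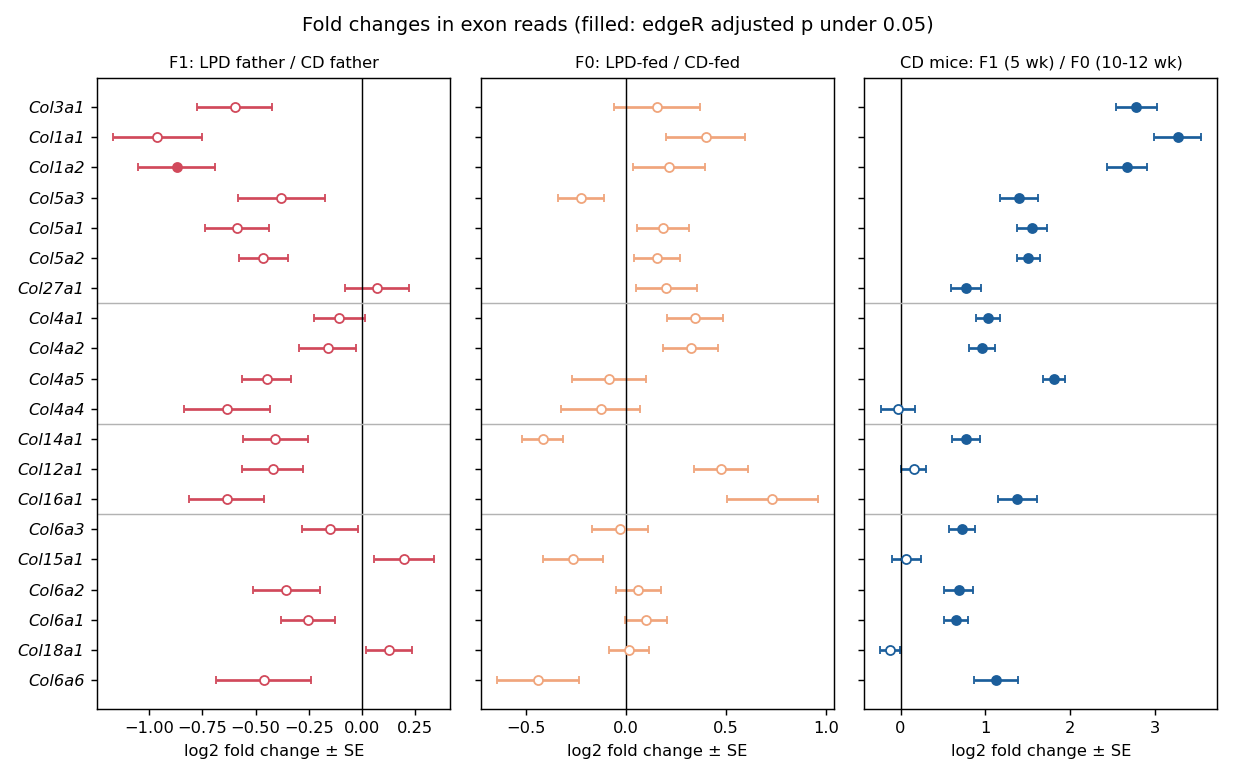
Log2 fold change in exon reads with its standard error (x axis) for the 20 genes averaging 10 CPM or more (y axis, grouped by class), in 3 comparisons; filled points have an adjusted p under 0.05 with edgeR. In F1 most points lie left of 0 and only Col1a2 is filled, in F0 the points lie on both sides, and between CD mice of the F1 and F0 ages 16 of the 20 are filled, all right of 0.

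Several cell type markers moved with the paternal diet in the same libraries. The sum of 10 fibroblast and progenitor genes was 2196 to 2590 CPM in F1-CD and 1659 to 2064 CPM in F1-LPD, with 8 of 10 negative and 0 called. That of 5 macrophage genes was 524 to 615 CPM against 349 to 418 CPM, with 3 of 5 called lower. The sum of 6 epithelial genes was 10.5 to 14.9 CPM against 1.53 to 4.88 CPM, and 2 of 4 tested were called lower. All 6 endothelial genes were negative (median −0.38) and all 7 lymphocyte genes positive (median 0.22), with 0 called in either list. Negative values were found for 4 of 5 Schwann cell, 4 of 6 mural, 4 of 5 tested skeletal muscle and 3 of 8 adipocyte genes. Of these, 1 mural gene was called lower and 0 of the Schwann cell, skeletal muscle and adipocyte genes were called. Over all genes tested, 48.6% were negative, 1.02% were called lower and 0.142% higher. The part of these lists in the collagen differences was not tested.

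Intron reads, which come mostly from unspliced RNA, gave a second readout of the same genes. Of 34 collagen genes tested on intron reads in F1, 29 were negative, with a median of −0.39, and 16 were lower at an unadjusted p under 0.05, against 8.17% of all 13456 genes. The 6 type IV genes were all negative here, with a median of −0.46, and 4 were lower at that unadjusted p. Of 8 fibrillar genes tested, 7 were negative, with a median of −0.59, and 6 were lower at it. Only Col1a1 passed the adjusted threshold, a call that 0.26% of all genes received in the lower direction. Its intron reads were at 68.1, 81.1 and 39.3 CPM of intron reads in F1-CD and at 18.7, 29.4 and 30.1 CPM in F1-LPD, −1.28 on the log2 scale (standard error 0.24, adjusted p = 0.0485, edgeR). As in the exon reads, F1-CD mouse 3 was the lowest of its group and the groups did not overlap. With DESeq2, Col4a1 was among the 5 of 43 genes called, against 0.496% of all genes called lower. Without F1-CD mouse 3, edgeR called 8 genes, Col4a1 and Col4a2 among them, against 0.982% of all genes called lower in that fit. Without each of the other mice it called 0 or 1. Col3a1 gave −0.73 (adjusted p = 0.109), Col5a1 −0.60 and Col5a2 −0.54 (both adjusted p = 0.0724), and Col1a2 −0.58 (adjusted p = 0.234). In one model of exon and intron reads, 0 collagen genes differed between the 2 kinds of read in their response to the paternal diet at an adjusted p under 0.05 (edgeR; DESeq2 was not run on this model), against 0.0415% of 12035 genes with a higher and 0.0914% with a lower exon change. The smallest adjusted p was that of Col15a1, 0.239, at a difference of 0.38.

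The diet of the F0 males themselves was compared in the 4 F0 libraries. Collagen genes lay on both sides of 0. Of 32 tested, 14 were positive and 18 negative, the median was −0.04, and 0 passed the adjusted threshold with edgeR or with DESeq2, against 1.18% of all 14581 genes called higher and 1.32% called lower. At an unadjusted p under 0.05, 4 were higher (Col4a1, Col4a2, Col12a1, Col16a1) and 1 lower (Col14a1), against 7.53% and 8.2% of all genes.

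Each of these 5 separated the mice by diet, as 23% of all genes did upward and 23.5% downward. Col4a1 was at 975 and 862 CPM on the CD and at 1049 and 1282 CPM on the LPD (log2 fold change 0.34, adjusted p = 0.281, edgeR), and Col4a2 at 613 and 579 against 655 and 837 CPM (0.32, adjusted p = 0.298). Col16a1 was at 14.8 and 9.89 against 16.8 and 24.1 CPM (0.73, standard error 0.23, adjusted p = 0.146), and Col12a1 at 28.0 and 23.9 against 32.3 and 39.9 CPM (0.48, adjusted p = 0.115). Col14a1, at 127 and 126 against 103 and 86.6 CPM, was the abundant fibril-associated chain and had a fold change of the opposite sign to Col12a1 and Col16a1, at −0.42 (adjusted p = 0.0760). Col1a1 was at 1034 and 661 CPM on the CD and at 1194 and 1037 CPM on the LPD (0.40, adjusted p = 0.386), a value that went from 0.11 without F0-CD mouse 2 to 0.75 without F0-CD mouse 1. Col1a2 and Col3a1 gave 0.21 and 0.15, signs that turned without F0-CD mouse 2. The sum of 7 skeletal muscle genes was 1278 to 1893 CPM on the CD and 648 to 887 CPM on the LPD, with 5 of 7 called lower. That of the 10 fibroblast and progenitor genes was 2230 to 2330 against 1968 to 2003 CPM, with 7 of 10 negative, 3 positive and 1 called lower. This sum leans on Dcn, the gene of the list with the most reads. Dcn had 7266 and 9719 unscaled exon reads on the CD and 5591 and 4883 on the LPD. In each of the macrophage, mural and Schwann cell lists 1 gene was called lower, and 1 lymphocyte gene was called higher. Over all genes tested in F0, 1.32% were called lower and 1.18% higher. The part of these lists in the collagen values was not tested.

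On intron reads, 1 of 37 collagen genes passed in F0, where 1.36% of all 14334 genes were called higher. It was Col5a3, at 23.3 and 19.9 CPM of intron reads in F0-CD against 35.2 and 48.5 in F0-LPD (log2 fold change 0.95, standard error 0.17, adjusted p = 0.0189, edgeR). Its exon reads had the opposite sign, at −0.23 (adjusted p = 0.404, edgeR). The F0 intron fit was added after values had been seen, and no alternative setting was run for it.

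Whether the diet acted alike in the 2 generations was tested as an interaction over all 10 libraries, which shares every library with the comparisons above. None of 35 collagen genes passed the adjusted threshold with edgeR, against 0.893% of all 15111 genes called lower and 0.357% called higher. With DESeq2, 4 of 43 were called lower, against 0.978% of all genes. At an unadjusted p under 0.05 with edgeR, 9 of the 35 were lower in the F1 than in the F0 response, against 7.58% of all genes. The lowest adjusted p-values were those of Col16a1 (−1.38 on the log2 scale, standard error 0.32, adjusted p = 0.0578), Col12a1 (−0.90, 0.21, adjusted p = 0.0603), Col1a1 (−1.37, 0.34, adjusted p = 0.0719) and Col1a2 (−1.09, 0.30, adjusted p = 0.0984). For Col16a1 the 2 diet effects had opposite signs, −0.64 in F1 and 0.73 in F0. Opposite signs were also found for Col12a1, Col1a1 (−0.96 and 0.40) and Col1a2 (−0.87 and 0.21).

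The mice on the CD in the 2 generations were set side by side with F1-CD against F0-CD, which shares the F1-CD libraries with the paternal diet comparison. Collagen genes were higher in the 5-week-old offspring. Of 35 tested, 19 were called higher and 0 lower with edgeR, against 10.1% of all 15111 genes called higher and 8.78% called lower, and the median was 0.77. Fibrillar genes led, with 8 of 9 higher and a median of 1.51.

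Col1a1 rose from 1034 and 661 CPM in F0-CD to 8818, 10353 and 5286 CPM in F1-CD, 9.62-fold (log2 fold change 3.27, standard error 0.28, adjusted p = 1.5e-05, edgeR). Col3a1 rose from 1804 and 1121 CPM to between 7624 and 12146 CPM, 6.85-fold, and Col1a2 from 900.2 and 619 CPM to between 3461 and 5980 CPM, 6.36-fold. In each, every F1-CD mouse lay far above both F0-CD mice. Type V chains rose less, at 1.55 for Col5a1, 1.51 for Col5a2 and 1.39 for Col5a3 on the log2 scale. Col27a1 (0.77) and Col11a2 (1.16) also passed, and Col11a1 (0.32, adjusted p = 0.633) did not.

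Basement membrane genes were called higher in 3 of 6. Col4a5 had the largest change, from 9.07 and 8.09 CPM to 28.5, 32.5 and 28.9 CPM (log2 fold change 1.81, standard error 0.13), and Col4a1 (1.03) and Col4a2 (0.96) rose less. Col4a4 gave −0.03, with a 95% interval of −0.42 to 0.36. Of the fibril-associated genes, Col16a1 (1.37) and Col14a1 (0.77) rose and Col12a1 (0.15, adjusted p = 0.518) did not pass. Among the other genes Col7a1 rose most (2.28, standard error 0.39), followed by Col6a6 (1.12), Col28a1 (0.98) and the type VI chains Col6a3, Col6a2 and Col6a1 (0.72, 0.69 and 0.65). Col15a1 (0.07, interval −0.26 to 0.40) and Col18a1 (−0.12, interval −0.35 to 0.11) did not pass.

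Without F0-CD mouse 2, the count was 11 of 37, against 2.92% of all genes called higher in that fit, with every type I, III and V gene among them. The same generations compared on the other diet, F1-LPD against F0-LPD, a contrast of other mice in the same fit, gave 15 higher and 1 lower of 35 (8.77% and 9.42% of all genes), with 8 of 9 fibrillar genes higher. The gene called lower there was Col12a1 (−0.75, adjusted p = 0.00483). The sum of the 10 fibroblast and progenitor genes was 2230 to 2330 CPM in F0-CD and 2196 to 2590 CPM in F1-CD, ranges that overlap, while 3 of the 10 were called higher and 1 lower. That of the 8 adipocyte genes was 15730.1 to 16704 against 12500.5 to 14177 CPM, with 8 of 8 negative and 4 called lower. Further, 2 of 6 endothelial and 2 of 4 tested epithelial genes were called higher, and of 6 mural genes 1 was called higher and 2 lower. The sum of the 7 skeletal muscle genes was 73.9 to 149 CPM in F1-CD and 1278 to 1893 CPM in F0-CD, and all 7 were called lower. Over all genes tested, 10.1% were called higher and 8.78% lower in F1-CD against F0-CD. The part of these lists in the collagen differences was not tested.

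Exon and intron reads of the same gene often changed by different amounts between these mice. On intron reads, 12 of 38 collagen genes were called higher and 1, Col23a1 (−1.04), lower, against 5.26% and 6.72% of all 14823 genes. One model of both kinds of read was fitted to genes that passed the low-count filter on both. At an adjusted p under 0.05 (edgeR), the exon change exceeded the intron change in 10 collagen genes and fell short of it in 3. The shares over the 13146 genes tested were 4.31% and 3.69%. For Col5a2, intron reads were at 139 and 140.0 CPM of intron reads in F0-CD and at 150, 153 and 114 CPM in F1-CD, while its exon reads rose by 1.51 on the log2 scale. The exon change was larger by 1.54 (standard error 0.13, adjusted p = 2.82e-08, edgeR). The same held for Col1a2 (1.75), Col4a5 (1.69), Col16a1 (1.69), Col3a1 (1.48), and for Col5a1, Col6a3, Col1a1, Col4a2 and Col4a1 with smaller differences. Col1a1 rose in both kinds of read, by 2.69 on introns and 3.27 on exons, a difference of 0.60 (adjusted p = 0.0405). The 3 genes with the opposite pattern were Col15a1, Col18a1 and Col5a3. Col15a1 intron reads rose from 80.2 and 53.3 to 198, 218 and 156 CPM of intron reads with no such rise in exon reads, a difference of −1.44 (standard error 0.11, adjusted p = 1.22e-08). Col18a1 gave −0.93 and Col5a3, whose introns rose by 2.26 and exons by 1.39, gave −0.79. The intron fit between these mice was added after values had been seen, without alternative settings. The model of both kinds of read was added after the separate values had been seen.

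**Figure D4:**
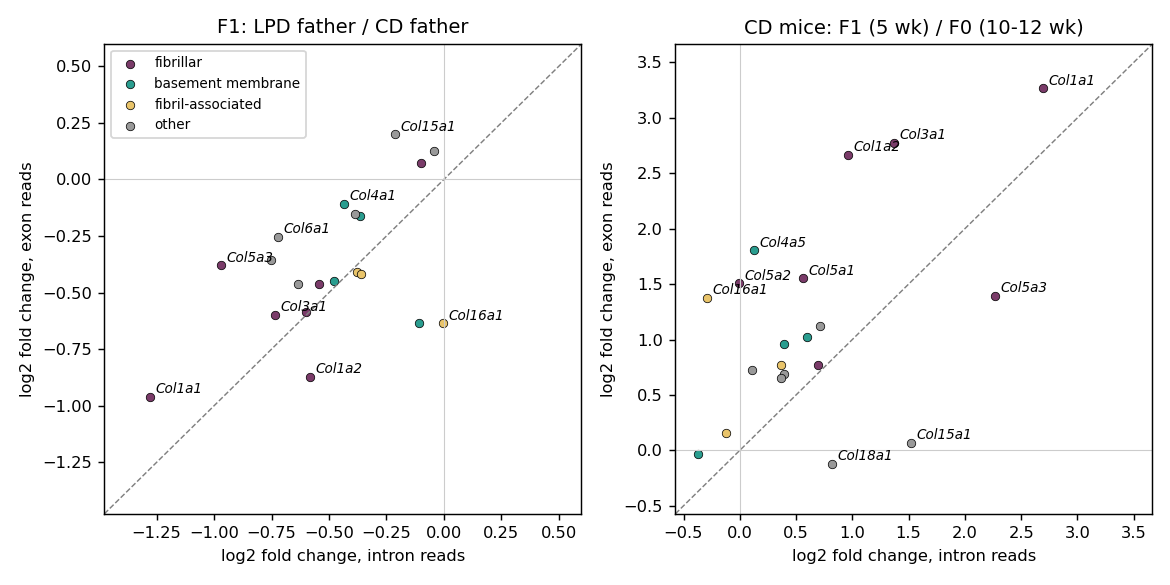
Log2 fold change of exon reads (y axis) against that of intron reads (x axis) for the 20 genes averaging 10 CPM or more, coloured by class, between paternal diets in F1 (left) and between CD mice of both generations (right); on the dashed line both are equal. On the right, Col1a2, Col3a1, Col5a2, Col4a5 and Col16a1 lie well above the line and Col15a1, Col18a1 and Col5a3 below it.

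Chains of a shared trimer, and the main chains of types III and I, were compared as ratios of reads per exon length within a library, which do not depend on the scaling between libraries. The ratio of Col1a1 to Col1a2 was 3.09 ± 0.227 (SD, n = 3) in F1-CD, 2.94 ± 0.0409 in F1-LPD, 2.05 ± 0.107 (SD, n = 2) in F0-CD and 2.34 ± 0.0341 in F0-LPD. The type I trimer holds more Col1a1 than Col1a2. The annotated exon length of Col1a2, 12137 bases against 6563, joins the exons of 7 transcripts, so the size of the ratio depends on the annotation. A change of length alone would scale every library alike. The annotation also sets which reads count as exon reads, and its effect on the order of the libraries was not tested. Every F1 library lay above every F0 library.

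The ratio of Col3a1 to Col1a1 was 0.843 ± 0.105 (SD, n = 3) in F1-CD and 1.05 ± 0.0458 in F1-LPD, groups that did not overlap. An exact permutation test gave 0.1, the smallest p that 3 against 3 mice allow, and 0.4 after adjustment over 6 ratios. In F0 the order was reversed, at 1.15 ± 0.0228 in F0-CD and 0.974 ± 0.0197 in F0-LPD (SD, n = 2 each), where 2 against 2 cannot give less than 0.333. Col4a1 to Col4a2 was 1.47 to 1.60 by group mean, Col5a1 to Col5a2 1.88 to 2.04, Col6a1 to Col6a2 1.80 to 1.91 and Col6a3 to Col6a1 0.620 to 0.764, with adjusted p-values of 0.4 in F1 and 0.667 in F0 by the exact permutation test.

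**Figure D5:**
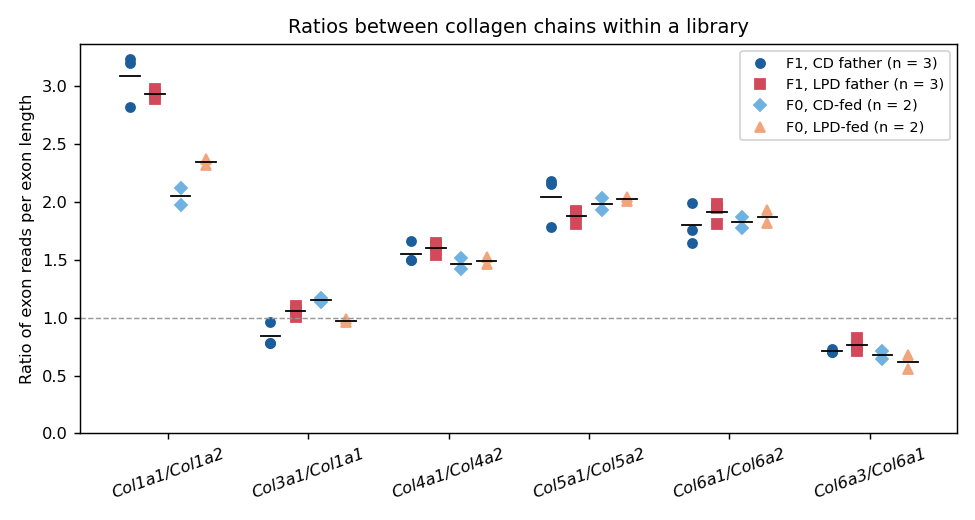
Ratios between collagen chains within a library, as exon reads per exon length (y axis, from 0), 1 point per mouse, with a bar at each group mean; the dashed line is at 1. Col1a1/Col1a2 is at 2.82 or above in all F1 libraries and at 2.37 or below in all F0 libraries, while Col4a1/Col4a2 stays between 1.42 and 1.66 in all 10.

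Some of these chains are neighbours in the genome. Type IV genes lie in head-to-head pairs: in the coordinates of the files (mm10), Col4a1 and Col4a2 on chromosome 8 overlap by 22 bases, Col4a4 and Col4a3 on chromosome 1 are 71 bases apart, and Col4a6 and Col4a5 on the X chromosome are 1308 bases apart. Within the last pair the levels were far apart, since in F1-CD Col4a5 was at 28.5 to 32.5 CPM and Col4a6 at 1.21 to 2.78 CPM. Col3a1 and Col5a2 lie tail to tail on chromosome 1 with 24614 bases between them. Reads where 2 genes overlap can be assigned to either, but the libraries mark strand, and whether the counting used it is not given in the sources used here.

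Promoter windows of 250 bases before to 50 bases after the gene start were found in RefSeq (GRCm38.p6) for 35 of the 44 genes, as 38 windows. The start is that of RefSeq, which for Col1a2 lies inside the span that the files give for the gene. They are printed for Col1a2, the gene called in F1, for Col3a1, and for the Col4a1 and Col4a2 pair, whose windows overlap by 78 bases. Capitals mark 3 words on either strand. The word CCAAT is read in promoters as a CCAAT box. The word TATAAA is read as a TATA box, and the word GGGCGG is read as a GC box. The windows are chr6:4505368-4505667 (plus), chr1:45311288-45311587 (plus), chr8:11312777-11313076 (minus) and chr8:11312555-11312854 (plus).
Col1a2: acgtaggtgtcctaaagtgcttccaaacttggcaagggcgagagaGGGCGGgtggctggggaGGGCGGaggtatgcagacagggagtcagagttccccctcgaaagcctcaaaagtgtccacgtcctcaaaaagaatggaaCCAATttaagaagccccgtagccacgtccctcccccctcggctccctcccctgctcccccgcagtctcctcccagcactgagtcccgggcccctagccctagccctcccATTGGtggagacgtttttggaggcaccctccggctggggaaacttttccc
Col3a1: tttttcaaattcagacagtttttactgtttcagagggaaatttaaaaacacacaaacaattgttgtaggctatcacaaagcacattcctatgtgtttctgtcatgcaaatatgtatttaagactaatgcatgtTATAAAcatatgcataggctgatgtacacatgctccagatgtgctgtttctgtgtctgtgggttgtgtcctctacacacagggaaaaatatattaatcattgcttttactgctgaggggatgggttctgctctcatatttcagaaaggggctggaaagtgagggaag
Col4a1: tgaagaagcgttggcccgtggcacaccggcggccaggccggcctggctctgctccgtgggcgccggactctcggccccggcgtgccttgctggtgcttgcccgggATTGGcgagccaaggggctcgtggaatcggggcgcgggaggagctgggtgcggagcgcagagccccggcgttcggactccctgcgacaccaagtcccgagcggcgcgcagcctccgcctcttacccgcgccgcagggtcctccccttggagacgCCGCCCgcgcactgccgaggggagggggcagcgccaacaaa
Col4a2: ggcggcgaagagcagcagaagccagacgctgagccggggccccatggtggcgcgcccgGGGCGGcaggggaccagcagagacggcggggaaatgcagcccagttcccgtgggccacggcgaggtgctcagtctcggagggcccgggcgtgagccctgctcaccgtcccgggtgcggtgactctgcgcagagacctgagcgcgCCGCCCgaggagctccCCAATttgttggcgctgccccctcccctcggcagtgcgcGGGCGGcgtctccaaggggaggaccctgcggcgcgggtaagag
The Col3a1 window held TATAAA and no GGGCGG and was 37.7% G or C, while those of Col1a2, Col4a1 and Col4a2 held GGGCGG and CCAAT but no TATAAA and were 61.0%, 74.0% and 73.7% G or C. The only GGGCGG match of the Col4a1 window lies in its overlap with the Col4a2 window, so the same site is marked in both. Over the 38 collagen windows, GGGCGG was found in 60.5%, CCAAT in 34.2% and TATAAA in 13.2%. Over the 32851 windows examined, which leave out a chromosome with none of the 44 genes, the shares were 35.7%, 37.4% and 13.6%. These are matches of letters only, without regard to their distance from the gene start.

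Collagen needs helpers to be made, and 44 genes that modify, fold, secrete, cut, cross-link or bind collagen were followed beside the chains, 42 of them tested in each comparison. In F1, 36 of the 42 were negative, with a median of −0.32, and 2 were called down-regulated, both of propeptide cleavage, where 48.6% of all genes tested were negative and 1.02% were called lower. Bmp1, the protease that removes the C-terminal propeptide of fibrillar chains, was at 99.2, 113 and 95.2 CPM in F1-CD and at 51.7, 65.5 and 67.3 CPM in F1-LPD (log2 fold change −0.74, standard error 0.11, adjusted p = 0.0155, edgeR). Pcolce, which enhances that cut, was at 131, 142 and 101 against 72.3, 87.0 and 86.9 CPM (−0.60, adjusted p = 0.0489). Neither overlapped between the groups. The calls of helper genes, here and below, come from the main fits and were not followed through the alternative settings.

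The helpers with the highest level per length were Sparc, a collagen-binding glycoprotein (311 RPKM on average over the 10 libraries), the collagen chaperone Serpinh1 (94.5 RPKM) and P4hb, a subunit of prolyl 4-hydroxylase (43.7 RPKM). In F1 they gave −0.37, −0.56 and −0.14, none past the adjusted threshold. In F0, 3 of 42 were called higher on the LPD, against 1.18% of all genes. Sparc was at 1501 and 1226 CPM on the CD and at 2121 and 3088 CPM on the LPD (log2 fold change 0.93, adjusted p = 0.0497, edgeR). Mrc2, an uptake receptor for collagen, gave 0.71 (adjusted p = 0.0435) and the integrin chain Itga1 0.53 (adjusted p = 0.0418). In the interaction 4 of 42 helpers were called lower in the F1 than in the F0 response, against 0.893% of all genes, namely Sparc (−1.31), Mrc2 (−1.21), Adamts2 (−0.81), which removes N-terminal propeptides, and Plod1 (−0.71), a lysyl hydroxylase. Between CD mice of the generations 9 of 42 helpers were higher and 2 lower in F1, against 10.1% and 8.78% of all genes, with Sparc (1.20), the cross-linking enzyme Loxl2 (1.10) and Serpinh1 (1.06) the highest, changes smaller than those of the type I and III chains.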

How the data were processed

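RNA from the iWAT of 10 male mice was depleted of rRNA, made into strand-marking libraries and sequenced by the authors as 2 × 36 base pairs, and the reads were placed on mm10 with CLC Genomics Workbench. Counts, as deposited by the authors, are total and uniquely matching exon reads and intron reads per gene without normalization. The deposited RPKM values were made by the authors from total exon reads, exon length and 1 total per library, and served here only to compare levels between genes. The deposited TPM values and expression values were not used.

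Total exon reads were tested in R 4.3.3 with edgeR 4.0.16: filterByExpr, TMM normalization and the two-sided quasi-likelihood F test, with Benjamini-Hochberg adjustment over all genes tested and a threshold of 0.05. F1 and F0 had fits of their own. The interaction and the comparisons between generations used all 10 libraries. Standard errors are the log2 fold change divided by the square root of F, and 95% intervals are 1.96 standard errors to each side. CPM of single mice are scaled by TMM over all 10 libraries, except for intron reads and for the helper genes, which carry the scaling of the fit they belong to. Chain ratios were compared by exact permutation tests. A floor of 3 reads was 0.299 to 0.472 CPM, counting error alone considered. Of 8 pairs of mice from the same group, all differed beyond counting error, so no library was counted as a duplicate. Nothing was pooled, and each mouse is its own replicate. The fits were tested on simulated counts.

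The genes named are those averaging 10 CPM or more and those past the threshold in any comparison. Helper genes named are those past it in F1 or F0 and the 3 with the highest mean RPKM. Adamts2, Plod1 and Loxl2, and low collagen genes with a value in the text, were chosen after their values were seen. The members, gene classes, helper genes and cell type lists were chosen with earlier results of these data known. The comparison of F1-LPD with F0-LPD and the joint model of exon and intron reads were added after values had been seen. So were the intron fits of F0 and of F1-CD against F0-CD, for which no alternative setting was run. The exon share covariate in the comparison of F1-CD with F0-CD was also added later. Alternatives were DESeq2 1.42.0, its size factors, no low-count filter, unique reads, all groups in 1 fit, an exon share covariate, the replicate number as a block and each mouse left out. Mice with the same replicate number did not deviate together, with correlations of 0.00064 to 0.0529 in F1 and 0.0545 in F0, so the numbers were not taken as pairs.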

Additional observations from a re-analysis of the deposited data

How the results depend on the processing

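The number of collagen genes called by paternal diet in F1 was 1 of 34, against 1.02% of all genes called lower. It was 5 of 43 with DESeq2 (1.2% of all genes called lower) and 9 of 43 without the low-count filter (2.53%). It was 2 with DESeq2 size factors (1.14%), with uniquely matching reads (1.47%) or with the replicate number as a block (1.51%). All 4 groups in 1 fit gave 4 of 35 (1.83%), and the exon share of the library as a covariate gave 0 (0.0997%). With 1 mouse left out it was between 0 and 8, against 0.119% to 2.58% of all genes called lower. All of these calls were in the lower direction. Col1a1 was among them under each of these settings except the main analysis and the covariate. Of the fits with 1 mouse left out, it was called only without F1-CD mouse 3. On intron reads the number was 1 of 34 in the main analysis and with the replicate block, against 0.26% and 0.505% of all genes called lower. It was 5 of 43 with DESeq2 (0.496%), 13 of 43 without the filter (1.92%) and 0 to 8 with 1 mouse left out (0.0146% to 0.982%). In F0 the number on exon reads was 0 of 32, against 1.18% of all genes called higher and 1.32% lower. Without the filter 3 of 42 were called higher and 1 lower, against 2.87% and 3.22% of all genes. The replicate block gave 3 higher and 1 lower of 32, against 4.5% and 5.04%. With the exon share as a covariate 1 of 32 was higher and 3 were lower, against 3.29% and 2.43%. Col1a1 was called higher on the LPD without the filter (adjusted p = 0.0166) and with the block (adjusted p = 0.0272). For the interaction it was 0 of 35, also with the block, against 0.893% and 1.24% of all genes called lower. It became 4 of 43 with DESeq2 (0.978%), 7 of 43 without the filter (2.45%) and 2 of 34 with uniquely matching reads (1.31%). With 1 F1 mouse left out it was 0 to 4, where 4 came without F1-CD mouse 3 (1.74%). For F1-CD against F0-CD it was 19, stayed at 16 to 20 under the other settings, 20 with the replicate block, and was 11 to 20 with 1 mouse left out. With all mice kept, 5.33% to 11.0% of all genes were called higher in F1-CD against F0-CD. The replicate number is not known to pair mice.

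With the exon share as a covariate, a share that did not overlap between the paternal diets, the F1 log2 fold changes turned positive for Col4a1 (0.034), Col4a2 (0.0021), Col12a1 (0.042), Col14a1 (0.069), Col6a1 (0.10), Col6a2 (0.046), Col6a3 (0.20) and Col6a6 (0.16), and the F0 values turned negative for Col1a2 (−0.13) and Col3a1 (−0.25), with Col1a1 at 0.029. With 1 mouse left out, the F1 value of Col27a1 ranged from −0.022 to 0.26, and the F0 values ranged from 0.11 to 0.75 for Col1a1, from −0.028 to 0.51 for Col1a2 and from −0.15 to 0.54 for Col3a1. The median over the F0 collagen genes, −0.04, ranged from −0.12 to 0.14. The other fold changes followed through these settings kept their sign. The cause of these shifts was not tested. With 2 mice per F0 group the F0 intervals are wide, and genes near 3 reads could not be assessed.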
